A study of Homo sapiens with 9 samples.

Results

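The genes described here code for the proteins with which a cell recognizes double-stranded RNA in its cytosol and endosomes, together with the adaptor, the kinase and the editing enzyme closest to that step. They are DDX58, IFIH1, DHX58, MAVS, TLR3, EIF2AK2, DDX60 and ADAR, and every probe that carries 1 of these 8 gene names was taken, which gave 13 of the 58201 probes on the array. All 13 probes passed the filter on dim probes, and 12 of them were well above background on all 9 arrays. RNA was measured on 9 single-color microarrays in 3 stable lines made from T47D, a human breast cancer cell line that is long established and of the luminal type. T47D-PA6 cells carry full-length PTH-AS, a long noncoding RNA transcribed downstream of the gene for parathyroid hormone, T47D-PA5 cells carry an incomplete PTH-AS, and T47D-VC1 cells carry the empty vector. The stable PTH-AS lines were made with a mammalian expression vector and G418 selection, and each group is 1 such line measured on 3 arrays, for PTH-AS one chosen for its high expression. The sources used here do not state whether the 3 arrays of a line come from separate cultures, so p-values measure the spread between these samples, which may be technical.

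RIG-I (DDX58) and MDA5 (IFIH1) are helicases that bind viral or other double-stranded RNA in the cytosol and pass the signal to MAVS on the mitochondrial surface, which leads to the induction of type I interferon. TLR3 recognizes double-stranded RNA in endosomes, while the kinase PKR (EIF2AK2) stops translation when it binds such RNA, and ADAR1 (ADAR) edits adenosines in it so that the cell's own RNA is not taken for foreign RNA. Most of these sensors are themselves interferon-stimulated genes.

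Replicate 1 of all 3 lines was on 1 slide, scanned in an earlier run than the other arrays, and stood apart. The median absolute difference over the 20106 genes tested was 0.21 to 0.268 on the log2 scale between replicate 1 and the other replicates of a line, and 0.0853 to 0.108 between replicates 2 and 3. Probes well above background made up 44.0% to 48.0% of each array, and 0 spots were saturated. Of 12 markers of luminal breast epithelium, all were above background on all 9 arrays, with summed signals of 661546 to 703544 in T47D-VC1, 664492 to 684654 in T47D-PA5 and 658877 to 688460 in T47D-PA6. Of these, TFF1 was 1.62 higher on the log2 scale in T47D-PA6 than in T47D-VC1 (limma adjusted p = 0.0011), PGR was lower (-1.07, limma adjusted p = 0.0072), and the other 10 did not pass. KRT19, the largest part of each sum, was 301366 on every array but T47D-PA6 replicate 3 (275766). Quantile normalization gives equal ranks equal values, so the evenness of the sums says little about the lines. Among 6 fibroblast markers, COL1A2, COL3A1, DCN and LUM were above background on no array, and only COL1A1 entered the test, with signals of 325 to 364, 289 to 326 and 235 to 265 in the same order of lines. It was lower in T47D-PA6 than in T47D-VC1 (-0.50, limma adjusted p = 0.020). Of 8 leukocyte markers, 7 were on the array, the T cell marker CD3E was above background on no array, and the sums were 3786 to 5297, 4033 to 4396 and 3728 to 5702. The monocyte marker CD14 was 1.80 higher on the log2 scale in T47D-PA6 than in T47D-VC1 (limma adjusted p = 0.0082). The part of these markers in the results was not tested.

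Of the 8 genes, DDX60, IFIH1, EIF2AK2, DHX58, DDX58 and ADAR, 6 in number, were higher in T47D-PA6 cells than in the vector control T47D-VC1. DDX60 rose most, by a factor of 21.9, followed by IFIH1 and EIF2AK2 at 4.89-fold and 4.27-fold, DHX58 and DDX58 at 3.63-fold and 3.54-fold, and ADAR at 1.69-fold. TLR3 also passed, as the seventh, but it was well above background on 1 of the 3 T47D-VC1 arrays, entered the test through the PTH-AS lines, and did not pass with no filter on dim probes (limma adjusted p = 0.079). Its rise is therefore not ranked among the others. MAVS did not pass. The share of all genes called in this comparison was 4.69% higher and 5.34% lower, at a limma adjusted p-value under 0.05 over the 20106 genes. In T47D-PA5 cells, only EIF2AK2 and ADAR of the 8 genes passed the same test against T47D-VC1, where 1.37% of all genes were called higher and 0.298% lower. Between the PTH-AS lines, T47D-PA6 had more DDX58, IFIH1, EIF2AK2 and DDX60 than T47D-PA5, where 3.65% of all genes were called higher and 6.06% lower. None of the 8 genes was called lower in any of the 3 comparisons. The comparisons of T47D-PA6 and of T47D-PA5 with T47D-VC1 share the T47D-VC1 arrays. The arrays read RNA from whole cultures, so more cells with a transcript and more transcript per cell cannot be told apart.

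All 3 arrays of T47D-PA6 lay above all 3 of T47D-VC1 for 7 of the 8 genes, TLR3 included, while 13.1% of all genes did so. T47D-PA5 lay wholly above T47D-VC1 for 4 genes, IFIH1, EIF2AK2, DDX60 and ADAR (11.2% of all genes), and T47D-PA6 wholly above T47D-PA5 for 5, DDX58, IFIH1, DHX58, EIF2AK2 and DDX60 (14.3%). The order of the line means was T47D-VC1, T47D-PA5, T47D-PA6 from low to high for DDX58, IFIH1, DHX58, TLR3, EIF2AK2 and DDX60. For DDX58 and DHX58 the lower neighbours in this order, T47D-VC1 and T47D-PA5, overlapped, and for TLR3 both neighbouring pairs did. Taking the 8 genes as a list, their median log2 fold change in the comparisons T47D-PA6 over T47D-VC1, T47D-PA5 over T47D-VC1 and T47D-PA6 over T47D-PA5 was 1.98, 0.85 and 1.0, while the medians over all genes tested were -0.03, -0.03 and -0.00092.

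**Figure D1:**
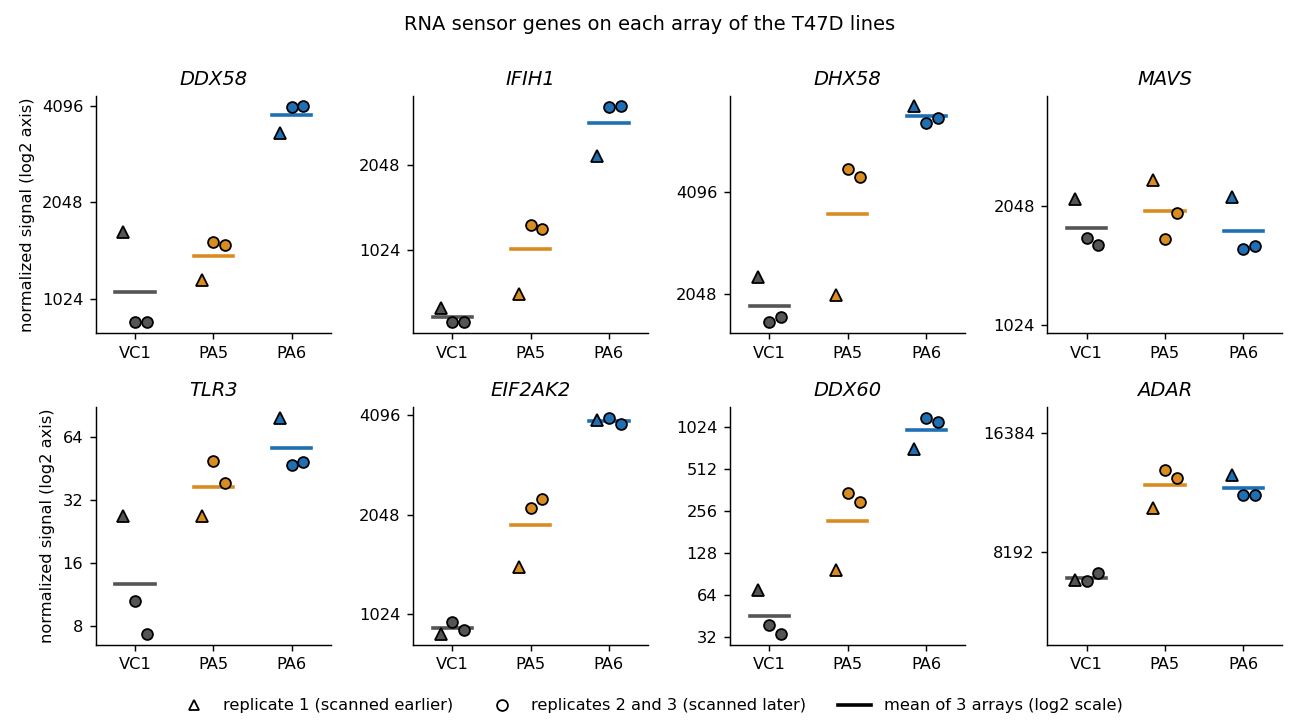
Normalized signal (log2 axis, each panel with its own range) of the 8 genes on each array, by line. Triangles are replicate 1, scanned earlier, circles are replicates 2 and 3, and bars are the mean of the 3 arrays on the log2 scale. For 7 genes the T47D-PA6 arrays lie above the T47D-VC1 arrays, and for MAVS the lines overlap.

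The 60-base probes that were read are shown for DDX60, IFIH1 and EIF2AK2, the 3 genes with the largest rise in T47D-PA6 over T47D-VC1 among those well above background on all arrays, and for TLR3, whose signal came near background, as the files give them, 5′ to 3′, so that it is clear which stretch of each transcript was measured. No base is marked in capitals. On hg19 they lie on the minus strand at chr4:169142891-169142950 (DDX60), on the minus strand at chr2:163128806-163128865 (IFIH1), on the plus strand at chr4:187005890-187005949 (TLR3) and on the minus strand at chr2:37336386-37341880 (EIF2AK2). The last covers 5495 bases of genome with 60 bases of probe, so it reads across a splice junction.
DDX60 probe: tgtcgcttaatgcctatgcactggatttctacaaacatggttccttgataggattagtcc
IFIH1 probe: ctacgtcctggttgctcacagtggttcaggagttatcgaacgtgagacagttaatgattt
TLR3 probe: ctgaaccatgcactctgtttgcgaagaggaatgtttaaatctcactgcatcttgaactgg
EIF2AK2 probe: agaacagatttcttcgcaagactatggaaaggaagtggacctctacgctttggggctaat

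The first of the RIG-I-like receptors, DDX58 (RIG-I, listed under the current symbol RIGI), recognizes short double-stranded RNA with a triphosphate end. Its brighter probe gave normalized signals of 1659.5, 867 and 868 on the T47D-VC1 arrays, 1173, 1541 and 1512 on those of T47D-PA5 and 3371, 4053 and 4071 on those of T47D-PA6. T47D-PA6 stood above both other lines on every array, whereas replicate 1 of T47D-VC1 was higher than all 3 arrays of T47D-PA5. Against T47D-VC1 this was a log2 difference of 1.83 for T47D-PA6 (SE, the standard error, 0.25, limma adjusted p = 0.0044), against T47D-PA5 one of 1.45 (limma adjusted p = 0.011), and between T47D-PA5 and T47D-VC1 it was 0.38 (95% confidence interval -0.20 to 0.95, limma adjusted p = 0.54). By the methods' t-test the rise over T47D-VC1 did not pass after adjustment (adjusted p = 0.085). A dimmer DDX58 probe gave 158, 110 and 102 in T47D-VC1, 154, 267 and 284 in T47D-PA5 and 705, 954 and 977 in T47D-PA6. The same order of the lines was seen with it, with a larger difference between T47D-PA6 and T47D-VC1 of 2.84 on the log2 scale (limma adjusted p = 0.00079 among all 26171 probes tested). Over T47D-VC1, T47D-PA5 was 0.91 higher with this probe (limma adjusted p = 0.15).

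MDA5, the product of IFIH1, recognizes long double-stranded RNA. Its signals were 636, 567 and 564 in T47D-VC1, 714, 1249 and 1212 in T47D-PA5 and 2198, 3288 and 3296 in T47D-PA6. The 3 lines did not overlap, and replicate 1 of T47D-PA5 lay close to the T47D-VC1 arrays. IFIH1 was 2.29 higher on the log2 scale in T47D-PA6 than in T47D-VC1 (SE 0.24, limma adjusted p = 0.0013) and 1.49 higher than in T47D-PA5 (limma adjusted p = 0.0085). In T47D-PA5 the difference from T47D-VC1 was 0.80 (95% confidence interval 0.25 to 1.35), with a limma adjusted p-value of 0.15. Without T47D-PA5 replicate 1 this difference was 1.06 and passed the test (limma adjusted p = 0.038).

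DHX58 codes for LGP2, the member of this helicase family that lacks the signaling domains and modulates the other receptors. Its signals were 2294, 1687 and 1748 in T47D-VC1, 2028, 4785 and 4519 in T47D-PA5 and 7323, 6520.2 and 6759 in T47D-PA6. The T47D-PA5 arrays were split, since replicate 1 lay among the T47D-VC1 arrays while replicates 2 and 3 lay nearer to T47D-PA6. The rise in T47D-PA6 over T47D-VC1 was 1.86 on the log2 scale (SE 0.30, limma adjusted p = 0.0089). Neither T47D-PA5 over T47D-VC1 (0.90, limma adjusted p = 0.20) nor T47D-PA6 over T47D-PA5 (0.96, limma adjusted p = 0.088) passed. The former passed without T47D-PA5 replicate 1, at 1.30 (limma adjusted p = 0.0085).

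DDX60, an interferon-stimulated helicase described as a cofactor of RIG-I-like receptors, had the widest range of the 8 genes. Its signals were 69.1, 39.1 and 33.6 in T47D-VC1, 96.4, 347 and 298 in T47D-PA5 and 709, 1201 and 1117 in T47D-PA6. The lines were separate on all arrays, and within each line replicate 1 stood apart from the other replicates, above them in T47D-VC1 and below them in T47D-PA5 and T47D-PA6. T47D-PA6 was 4.45 higher on the log2 scale than T47D-VC1 (SE 0.49, limma adjusted p = 0.0018) and 2.19 higher than T47D-PA5 (limma adjusted p = 0.028). The latter call did not hold when slide entered the fit as a block (adjusted p = 0.054), without T47D-PA5 replicate 3 (0.059), without T47D-PA6 replicate 2 (0.104) or 3 (0.10), with no filter on dim probes (0.093), in a fit to the PTH-AS lines alone (0.053) or by the methods' t-test (0.15). In T47D-PA5, DDX60 was 2.26 above T47D-VC1, a 4.79-fold difference that missed the threshold (limma adjusted p = 0.064) and passed at 2.84 without T47D-PA5 replicate 1 (limma adjusted p = 0.0098). With normexp background correction the 3 differences of DDX60 were smaller, at 3.15 and 1.83 for T47D-PA6 over T47D-VC1 and over T47D-PA5 and 1.32 for T47D-PA5 over T47D-VC1.

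MAVS, the adaptor through which RIG-I and MDA5 signal, was the 1 gene of the 8 that was called in none of the comparisons. Its brightest probe gave 2134, 1695 and 1631 in T47D-VC1, 2379.9, 1689 and 1963 in T47D-PA5 and 2156, 1599 and 1621 in T47D-PA6. In each line replicate 1 was the highest, and the lines overlapped. T47D-PA6 differed from T47D-VC1 by a log2 fold change of -0.03 (95% confidence interval -0.43 to 0.38, limma adjusted p = 0.95), an interval from 0.74-fold to 1.30-fold. The other MAVS probes gave -0.28, -0.09 and -0.02 in the same comparison. The first of these was the most even between replicates, with signals of 1505, 1504 and 1481 in T47D-VC1, 1417, 1444 and 1406 in T47D-PA5 and 1208, 1241 and 1239 in T47D-PA6. It was lower on every T47D-PA6 array than on any other array, but did not pass (limma adjusted p = 0.063 against T47D-VC1 and 0.15 against T47D-PA5).

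**Figure D2:**
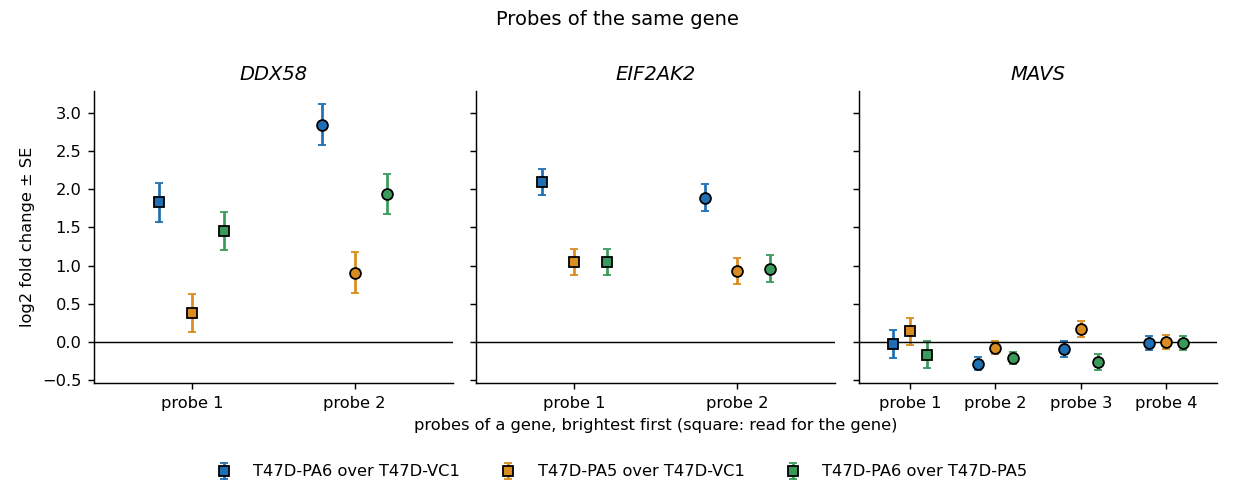
Log2 fold change with its standard error (vertical axis) for each probe of the 3 genes with more than 1 probe, in the 3 comparisons. Squares are the probes read for the gene, circles the dimmer ones. Probes of DDX58 and EIF2AK2 order the comparisons alike, and those of MAVS lie between -0.28 and 0.17.

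TLR3, the endosomal receptor, was the only 1 of the 8 that was not well above background on all 9 arrays. Its signals were 26.9, 10.6 and 7.39 in T47D-VC1, 26.8, 49.3 and 38.6 in T47D-PA5 and 79.3, 47.2 and 48.6 in T47D-PA6. On 1 of the 3 T47D-VC1 arrays this probe was well above background, where the lowest signals so marked on the arrays were 9.59 to 15.2. All T47D-PA6 arrays were above all T47D-VC1 arrays, and T47D-PA5 overlapped with both. The difference between T47D-PA6 and T47D-VC1 was 2.14 on the log2 scale (SE 0.46, limma adjusted p = 0.024). This call ended without any 1 of T47D-VC1 replicates 2 and 3 and T47D-PA6 replicates 2 and 3 (limma adjusted p from 0.062 to 0.080), and also with no filter on dim probes (0.079), a fit to these lines alone (0.058) or the methods' t-test (0.16). With normexp background correction the difference was 0.59, the smallest of the 7 genes called there. For T47D-PA5 over T47D-VC1 the value was 1.53 (limma adjusted p = 0.15), and it passed at 2.07 without T47D-VC1 replicate 1 (limma adjusted p = 0.030). Between the PTH-AS lines it was 0.61 (95% confidence interval -0.44 to 1.66, limma adjusted p = 0.46).

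EIF2AK2, the gene for PKR, was among the 2 genes called in both lines against T47D-VC1. Its signals were 891, 969 and 915 in T47D-VC1, 1418, 2145 and 2286 in T47D-PA5 and 3954, 4033 and 3861 in T47D-PA6. The lines formed 3 steps without overlap, T47D-PA6 being the most even between replicates with an SD of 0.03 on the log2 scale (n = 3). The first step, T47D-PA5 over T47D-VC1, was 1.05 on the log2 scale (SE 0.17, limma adjusted p = 0.024). The second, T47D-PA6 over T47D-PA5, was also 1.05 (limma adjusted p = 0.0085), and T47D-PA6 stood 2.09 above T47D-VC1 (limma adjusted p = 0.00052). A dimmer probe elsewhere in the gene gave 1.89, 0.93 and 0.96 for T47D-PA6 over T47D-VC1, T47D-PA5 over T47D-VC1 and T47D-PA6 over T47D-PA5, all 3 with limma adjusted p-values under 0.05 (0.00074, 0.039 and 0.012). The call in T47D-PA5 ended without any 1 of T47D-VC1 replicates 1, 2 and 3, T47D-PA5 replicates 2 and 3 and T47D-PA6 replicate 3, with limma adjusted p-values of 0.051 to 0.104 and log2 fold changes of 0.92 to 1.08, and also with no filter on dim probes (adjusted p = 0.071), a fit to these lines alone (0.067) or the methods' t-test (0.18).

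ADAR codes for ADAR1, whose long form is induced by interferon, and the single probe does not tell the long form from the short. Its signals were 6938, 6887 and 7229 in T47D-VC1, 10595, 13207 and 12575 in T47D-PA5 and 12848, 11407 and 11422 in T47D-PA6. Both PTH-AS lines lay above T47D-VC1 on every array and overlapped with each other. Over T47D-VC1, ADAR rose by 0.76 on the log2 scale in T47D-PA6 cells (SE 0.11, limma adjusted p = 0.0055) and 0.78 in T47D-PA5 (limma adjusted p = 0.014). T47D-PA6 and T47D-PA5 differed by -0.02 (95% confidence interval -0.28 to 0.23, limma adjusted p = 0.93), an interval from 0.83-fold to 1.17-fold. The call in T47D-PA5 did not hold without T47D-VC1 replicate 2 or 3 or T47D-PA5 replicate 2 or 3 (limma adjusted p from 0.056 to 0.078) or by the methods' t-test (0.0995). ADAR was the gene of the 7 whose T47D-PA5 mean was the highest of the lines.

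**Figure D3:**
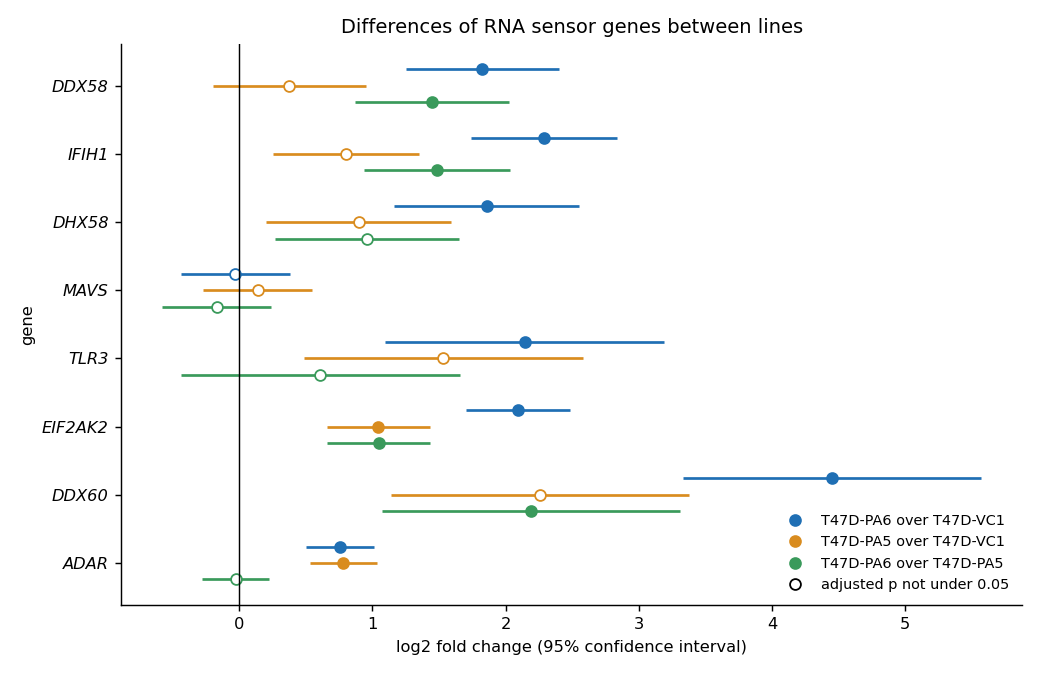
Log2 fold change (horizontal axis) with its 95% confidence interval for the 8 genes in the 3 comparisons. Filled points have a limma adjusted p-value under 0.05. The intervals of T47D-PA6 over T47D-VC1 lie above 0 for all genes but MAVS, and ADAR is the gene with near-equal values for both lines over T47D-VC1 (0.76 and 0.78).

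Within the scan runs, T47D-PA6 was above T47D-VC1 for the same 7 genes in both. For these genes all T47D-PA6 arrays lay above all T47D-VC1 arrays, so this direction was fixed in advance and is no replication. The log2 fold changes on the earlier slide, with 1 array a line, were 1.02 for DDX58, 1.79 for IFIH1, 1.67 for DHX58, 1.56 for TLR3, 2.15 for EIF2AK2, 3.36 for DDX60 and 0.89 for ADAR. In the later run, with replicates 2 and 3, they were 2.23, 2.54, 1.95, 2.44, 2.07, 5.0 and 0.69 in the same order. In T47D-PA5 over T47D-VC1 the runs gave different values. On the earlier slide the log2 fold changes were -0.50 for DDX58, 0.17 for IFIH1, -0.18 for DHX58, -0.0042 for TLR3, 0.67 for EIF2AK2, 0.48 for DDX60 and 0.61 for ADAR. In the later run they were 0.82, 1.12, 1.44, 2.30, 1.23, 3.15 and 0.87. EIF2AK2 and ADAR, the genes called with all arrays, were above T47D-VC1 by at least 0.61 in both runs. They were called on these same arrays, so the split by run is no separate test of them. With the later run alone, chosen after seeing the data, limma called 7 of the 8 genes higher in T47D-PA5, all but MAVS, and 4309 of all genes in either direction. Between T47D-PA6 and T47D-PA5, DHX58 was 1.85 higher on the earlier slide and 0.51 in the later run, and TLR3 1.56 and 0.13. A test of the difference between runs passed for 3 of the 8 genes in T47D-PA6 over T47D-VC1 (10.1% of all genes passed), for 6 in T47D-PA5 over T47D-VC1 (14.5%) and for 3 in T47D-PA6 over T47D-PA5 (9.41%). In that fit, as in the later run alone, the spread comes from replicates 2 and 3, which lay closer to each other than to replicate 1, and the earlier side is 1 array a line, so the p-values are against a narrow and possibly technical spread. The earlier run, its slide and replicate 1 coincide and cannot be told apart. In the later run, T47D-VC1 and T47D-PA5 had replicate 2 on slide 2 and replicate 3 on slide 3. Replicates 2 and 3 of T47D-PA6 were both on slide 3, so line and slide are not balanced there.

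**Figure D4:**
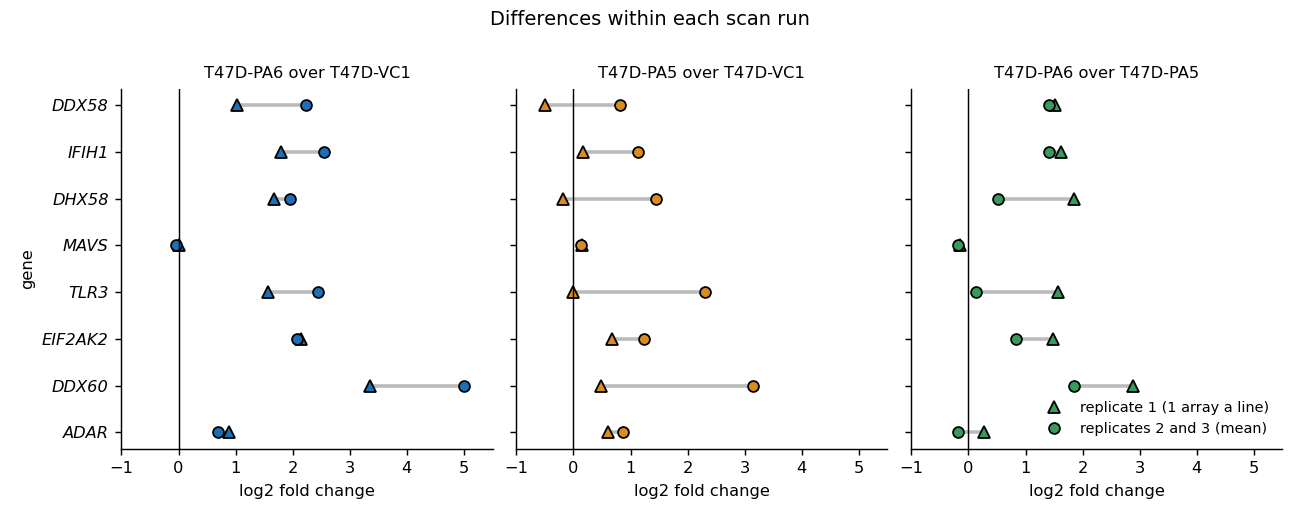
Log2 fold change (horizontal axis) of the 8 genes within each scan run, 1 panel for each comparison. Triangles compare replicate 1 of the lines, circles the means of replicates 2 and 3, and grey lines join both values of a gene. In T47D-PA5 over T47D-VC1, DDX60 has the widest gap, 0.48 against 3.15.

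The promoters of the 8 genes, most of which were higher in T47D-PA6, were read from RefSeq (GRCh38.p14), from 250 bases before the start of each gene to 50 after it. This table held 7 of the 8 genes, with 3 starts for ADAR and 1 for each of the others, and DHX58 had no entry. Interferon-stimulated promoters are known for a direct repeat of GAAA, the core of the interferon-stimulated response element. With the letters GAAANNGAAA, searched on both strands, a match was found in the windows of IFIH1, DDX60, EIF2AK2 and TLR3, while 3.57% of all 35116 promoter windows held one. With a single base between the repeats, GAAANGAAA, a match was found for DDX58 and DDX60 (3.12% of all windows), the latter overlapping with a match to the first motif. Neither was found in the windows of MAVS and ADAR. The letters TTCNNNGAA, a motif bound by STAT dimers, were found in DDX60 and TLR3 (7.66% of all windows). A match describes the sequence only, and binding was not measured. In the following stretches of 60 bases, 5′ to 3′ on the strand of the gene, capitals mark the repeats, which on the opposite strand read TTTC.
DDX60 promoter, minus strand, chr4:168318789-168318848: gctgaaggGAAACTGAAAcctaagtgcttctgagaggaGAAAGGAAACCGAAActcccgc
IFIH1 promoter, minus strand, chr2:162318679-162318738: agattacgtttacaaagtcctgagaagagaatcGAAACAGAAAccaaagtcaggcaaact
IFIH1 promoter further upstream, minus strand, chr2:162318806-162318865: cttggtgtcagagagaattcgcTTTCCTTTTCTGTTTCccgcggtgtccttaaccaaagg
EIF2AK2 promoter, minus strand, chr2:37156975-37157034: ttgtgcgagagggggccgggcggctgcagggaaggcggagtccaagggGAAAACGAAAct
DDX58 promoter, minus strand, chr9:32526366-32526425: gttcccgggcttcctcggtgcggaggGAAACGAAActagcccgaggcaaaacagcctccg
TLR3 promoter, plus strand, chr4:186069102-186069161: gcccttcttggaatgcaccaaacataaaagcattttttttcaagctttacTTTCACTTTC
The matches nearest to the start of the gene began 6 bases before it in EIF2AK2, 4 in TLR3, 21 in IFIH1, 53 in DDX60 and 203 in DDX58. DDX60 and IFIH1 each held 3 matches to the repeats, and in both genes neighbouring matches overlapped, so these are not all separate sites. ADAR, which also rose, held none. Whether the matches bear on the rise of a gene was not tested.

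The rest of the pathway was read from 4 lists. They were chosen with earlier results of these data known, so their shares are a description and no test. The lists held 76 genes, of which 67 were tested. In T47D-PA6 over T47D-VC1, 12 of these were higher (17.9%, against 4.69% of all genes) and 3 lower (4.48%, against 5.34%). Among the 12, OAS1 and DDX60L entered the test only through the PTH-AS lines, where they are high. With probes well above background on all arrays, 13 of 63 pathway genes were called in either direction, against 1902 of all 18242 genes. Against T47D-VC1, T47D-PA5 had 5 higher (7.46%, against 1.37%) and 0 lower. OAS1 is among these 5, and here too it entered the test only through the PTH-AS lines. T47D-PA6 over T47D-PA5 had 9 higher (13.4%, against 3.65%) and 4 lower (5.97%, against 6.06%). The median log2 fold changes of the 67 genes were -0.03, 0.0093 and 0.03 in the same order, near those of all genes, and the called genes were a minority.

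Downstream of the sensors, 2 of 17 adaptors, kinases and transcription factors were called in T47D-PA6 over T47D-VC1, 1 in each direction (5.88%, near the 4.69% higher and 5.34% lower of all genes). IRF7, the transcription factor that drives interferon alpha genes, was higher, with signals of 1673, 1362 and 1257 in T47D-VC1, 2513, 5494 and 5029 in T47D-PA5 and 10659, 11703 and 11733 in T47D-PA6. The lines did not overlap, and IRF7 exceeded T47D-VC1 by 3.0 on the log2 scale in T47D-PA6 (limma adjusted p = 0.00072) and 1.53 in T47D-PA5 (limma adjusted p = 0.033). IKBKE, a kinase of the TBK1 type that phosphorylates IRF3 and IRF7, was lower, at 20.7, 24.8 and 19.9 in T47D-PA6 against 42.4, 52.7 and 47.2 in T47D-VC1 and 66.7, 52.4 and 52.4 in T47D-PA5. Relative to T47D-VC1, IKBKE fell by 1.12 in log2 units (limma adjusted p = 0.0032). None of the kinase TBK1 (-0.10), the factor IRF3 (-0.01) and the TLR3 adaptor TICAM1 (0.28) passed in T47D-PA6 (limma adjusted p = 0.70, 0.97 and 0.16).

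Among 19 tested regulators of the sensors, 3 were higher (15.8%, against 4.69% of all genes) and 0 lower in T47D-PA6 over T47D-VC1. UNC93B1, which carries nucleic acid-sensing Toll-like receptors to the endosome, was 1.08 higher on the log2 scale (limma adjusted p = 0.0017) and also 0.64 higher than in T47D-PA5 (limma adjusted p = 0.014). ZC3HAV1, an RNA-binding antiviral protein, was 0.62 higher (limma adjusted p = 0.033), and TRIM25, a ubiquitin ligase of RIG-I, 0.52 (limma adjusted p = 0.012). None of the 19 was called in T47D-PA5 over T47D-VC1. Of 15 partners and relatives of PKR and ADAR1, 1 was called in T47D-PA6 over T47D-VC1, the amino acid-sensing kinase EIF2AK4, which was lower (-0.51, limma adjusted p = 0.020). This is 6.67% of the list, near the 5.34% of all genes called lower. EIF2S1, the translation factor that PKR phosphorylates, was at -0.06 (limma adjusted p = 0.70).

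Other sensors and effectors of foreign nucleic acid formed the list with most calls, 8 higher (50%, against 4.69% of all genes) and 1 lower (6.25%, against 5.34%) of 16 tested in T47D-PA6 over T47D-VC1. The 8 include OAS1 and DDX60L, whose limits are given below. This list too was chosen with earlier results of these data known, so its share is no test. The oligoadenylate synthetases OAS2 and OAS3, which make a second messenger on sensing double-stranded RNA, were higher by 4.14 and 3.12 on the log2 scale. Their relative OASL was higher by 5.29. OAS1 passed with a difference of 7.14, but it was well above background on 1 of the 3 T47D-VC1 arrays and entered the test through the PTH-AS lines, so this size is uncertain. The RNA-binding IFIT1 and IFIT5 were higher by 5.81 and 3.74, and DDX60L, the neighbouring relative of DDX60, by 3.10. The limma adjusted p-values were 0.00037 to 0.0037 for these 7 genes. DDX60L was well above background on 2 of the 3 T47D-VC1 arrays and, like OAS1, entered the test through the PTH-AS lines. STING1, the adaptor of cytosolic DNA sensing, gave 328, 329 and 303 in T47D-VC1, 280.2, 404 and 355 in T47D-PA5 and 693, 765 and 728 in T47D-PA6. It was raised in T47D-PA6 alone of these lines, by 1.19 on the log2 scale over T47D-VC1 and by 1.09 over T47D-PA5 (limma adjusted p = 0.0021 and 0.0039), and the difference between T47D-PA5 and T47D-VC1 was 0.10 (limma adjusted p = 0.80). The helicase DHX9 was lower in T47D-PA6 than in T47D-VC1, with a log2 fold change of -0.57 (limma adjusted p = 0.043). Of this list, TLR7, TLR8, TLR9, AIM2, CGAS and IFI16 were well above background on no array.

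**Figure D5:**
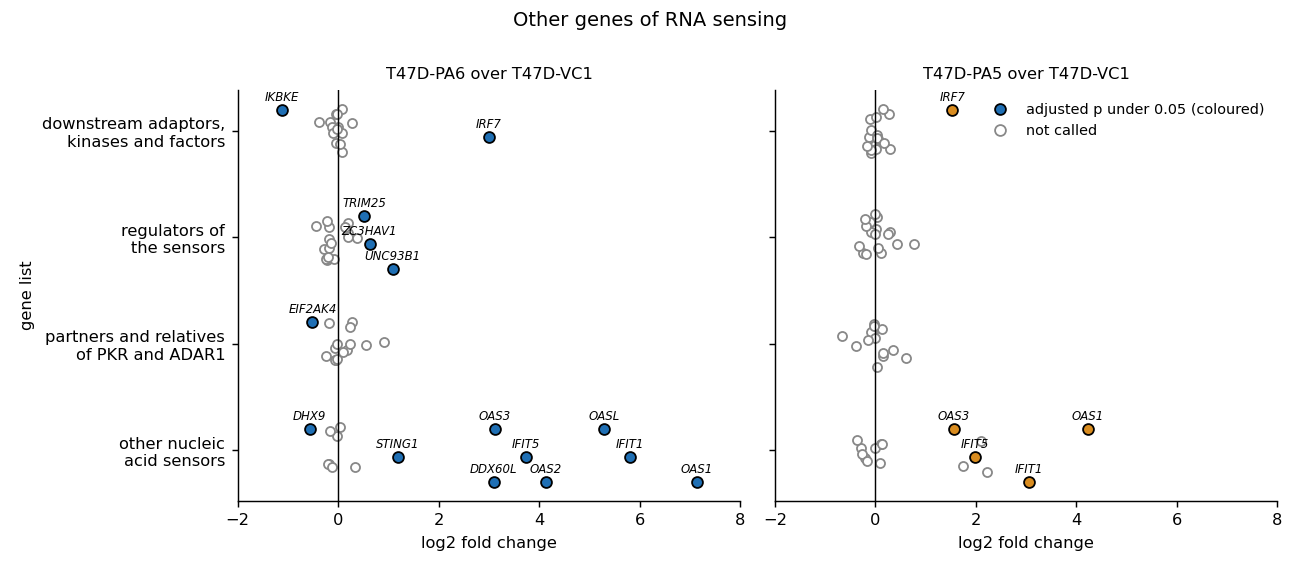
Log2 fold change (horizontal axis) of the 67 tested genes of the 4 lists, for T47D-PA6 and T47D-PA5 over T47D-VC1. Each point is a gene, coloured and named where the limma adjusted p-value is under 0.05, and the vertical scatter within a list has no meaning. Most coloured points lie in the list of other nucleic acid sensors, 9 in T47D-PA6 and 4 in T47D-PA5.

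Across the 9 arrays, the genes whose log2 signals followed those of the sensors most closely were listed by Pearson correlation, as a description, since the arrays share 3 lines and 2 scan runs. DDX60 was nearest to RTP4 (r = 0.998), SAMD9L and IRF7, and EIF2AK2 to IFIT1 (r = 0.996), HERC6 and OAS3. IFIH1 was nearest to IFITM3 (r = 0.995), HCP5 and IFITM4P, DHX58 to PARP10 (r = 0.992), TNNT1 and XAF1, and DDX58 to ATP10A (r = 0.984), BDKRB2 and PLEKHA4. TLR3 was nearest to LMTK3 (r = 0.978), SHROOM3 and SECTM1, ADAR to COL18A1 (r = 0.982), DDO and PLEKHB1, and MAVS to DHX30 (r = 0.978), PCNX1 and SOCS3-DT. Among the 8 genes themselves, EIF2AK2 and DDX60 were closest (r = 0.980), followed by IFIH1 and DDX60 (r = 0.979), while MAVS correlated with the others at -0.29 to 0.23 over the 9 arrays. ADAR correlated with DDX58 at 0.59 and with EIF2AK2 at 0.85.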

How the data were processed

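The authors deposited, for each of 9 arrays (1 color, Cy3), the background-subtracted intensity of each spot from Feature Extraction (version 10.7.1.1 in the file headers, 9.5.1.1 in the labels), not normalized between arrays, and a table of values they had quantile-normalized in R. Of 62976 spots, 60901 were not controls (58201 probes). Outlier spots (46 to 117 an array) were left out, spots of a probe averaged on the log2 scale, and quantile normalization applied between arrays. A probe entered the test if all 3 arrays of some line had it well above background (26171 probes), and a gene was read from its brightest tested probe (20106 genes). Names came from RefSeq gene names (31127 probes by symbol, 3343 by accession, 496 by synonym, 23235 kept). Probe positions are hg19 as in the files, and what the annotation holds there was not analysed here. Signals of a probe compare lines, not genes.

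Comparisons used limma 3.58.1 in R 4.3.3 (and version 1.17.8 of data.table), 1 fit over 9 arrays, 6 residual degrees of freedom, Benjamini-Hochberg over all genes, threshold 0.05. The fit was tested on simulated data. The 3 arrays of a line limit the precision. Named were the 8 genes with all probes, in the 4 pathway lists those called against T47D-VC1 (at most the 8 with the largest log2 fold change a list) plus TBK1, IRF3, IRF7, TICAM1, TRIM25 and EIF2S1, and 3 nearest genes by correlation. DHX9, CD14, TFF1, PGR and COL1A1 were named after their values were seen, and 1 gene of the lists is not reported here. The genes and lists were chosen with earlier results of these data known. Alternatives were another normalization, background correction and filters, the authors' table, slide and replicate blocks, each array left out, an intensity trend, the methods' t-test, 2 lines only, other uses of probes and, added after seeing the data, the later scan run alone. The authors' fold definition was not used for calls.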

Additional observations from a re-analysis of the deposited data

Results flagged for a closer look

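For 3 comparisons the difference between lines was set against the scan run, as the log2 fold change on the earlier slide minus that in the later run, and 12 values passed the test of this difference (limma with a line by run interaction, 3 residual degrees of freedom, adjusted over all genes). The earlier slide holds 1 array of each line, so the spread comes from replicates 2 and 3 alone (median absolute log2 difference 0.0853 to 0.108, against 0.21 to 0.268 from replicate 1), and 9.41% to 14.5% of all genes passed. The values thus compare single arrays with a narrow and possibly technical spread. In T47D-PA6 over T47D-VC1 the values were -1.20 for DDX58, -0.75 for IFIH1 and -1.64 for DDX60, negative where the difference was smaller on the earlier slide. In T47D-PA5 over T47D-VC1 they were -1.32 for DDX58, -0.95 for IFIH1, -1.61 for DHX58, -2.31 for TLR3, -0.56 for EIF2AK2 and -2.67 for DDX60. Between T47D-PA6 and T47D-PA5 they were 1.34 for DHX58, 0.65 for EIF2AK2 and 1.03 for DDX60. For DDX58 in T47D-PA5 over T47D-VC1 the log2 fold change had opposite signs in the runs, -0.50 and 0.82. T47D-PA5 replicate 1 was below replicates 2 and 3 of its line for DDX58, IFIH1, DHX58, TLR3, EIF2AK2, DDX60 and ADAR. What differed between the runs was not tested.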

How the results depend on the processing

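The number of RNA sensor genes called was 5 to 7 in T47D-PA6 over T47D-VC1 under all alternatives, and 6 with probes well above background on all arrays, where TLR3 was not tested. For T47D-PA5 over T47D-VC1 the number was 2 with all arrays, 1 with no filter on dim probes and with only the 2 lines compared, 0 by the methods' t-test (4 at an unadjusted p under 0.05, against 6 in limma), 0 to 5 when each array was left out in turn and 7 in the later scan run alone. It was 0 without T47D-VC1 replicate 2 or 3 or T47D-PA5 replicate 2 or 3, and 5 without T47D-PA5 replicate 1. In T47D-PA6 over T47D-PA5 it was 4 with all arrays and 1 by the methods' t-test. It was 3 with no filter on dim probes, with slide as a block, and without T47D-PA5 replicate 3 or T47D-PA6 replicate 2 or 3. The number of pathway genes called was 15 in T47D-PA6 over T47D-VC1, 30 in the later run and 11 to 17 with each array left out. For T47D-PA5 over T47D-VC1 the number was 5, and 1 with no filter, 3 with only the 2 lines compared, 0 by the methods' t-test, 19 in the later run and 0 to 7 with each array left out. In T47D-PA6 over T47D-PA5 it was 13, and 1 by the methods' t-test, 25 in the later run and 6 to 15 with each array left out. The later run alone called 7469, 4309 and 7142 of all genes in the 3 comparisons, against 2017, 335 and 1952 with all arrays, and the methods' t-test 432, 39 and 790. The causes were not tested.

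With the replicate block in the fit, limma called 7, 2 and 4 of the 8 genes, the same numbers as without it. The replicate numbers were not taken as a pairing, because 1 of the 9 correlations between arrays of the same number was under 0.1 (0.099 to 0.337), and 4 of 9 arrays correlated best with their own number. For replicate 1 the correlations were 0.21 to 0.337, and each replicate 1 array correlated best with another replicate 1 array. These arrays share a slide and scan run, for which the main fit held no term. Of 525 values of single sensor genes under alternatives, 476 kept their direction and their side of the threshold, 31 lost the call and 11 gained it. The other 7 changed sign with an array left out, in differences near 0 that were called in no setting, MAVS in T47D-PA6 over T47D-VC1 (-0.17 to 0.094) and ADAR in T47D-PA6 over T47D-PA5 (-0.12 to 0.041). IFIH1, DHX58, EIF2AK2, DDX60 and ADAR in T47D-PA6 over T47D-VC1 passed under every alternative run, DDX58 under all but the methods' t-test, and TLR3 under 14 of 21.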
